A study of Mus musculus with 12 samples.

Results

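The natriuretic peptide system of the mouse heart was followed through 7 genes of the 49568 in the deposited count table: the peptide hormones Nppa and Nppb, the receptors Npr1, Npr2 and Npr3, and the processing proteases Corin and Furin. They were chosen by name, with earlier results of these data known, and all 7 had enough reads to be tested. Cardiomyocyte RNA came from 12 libraries of male mice, 3 in each of 4 groups. Control mice carried alphaMHC-MerCreMre/+, a tamoxifen-inducible Cre driven by the cardiomyocyte alpha-myosin promoter. The dKO mice (MHC-MerCreMre/+; Mrtf-a-/-; Mrtf-bflox/flox) carried the same Cre, lacked myocardin-related transcription factor (MRTF) A throughout the body and had a floxed gene for MRTF-B. Tamoxifen (30 ug/g) was injected on 3 days at 8 weeks of age in all mice, controls included. They then had either a sham operation or trans-aortic constriction (TAC), which narrows the aorta and raises the load on the left ventricle, and hearts were taken 7 days later at 11 weeks. The protocol puts surgery at 10 weeks and the design text at 8 weeks. The labels number the libraries within a group but do not say that each came from 1 animal, so p-values measure the spread between these libraries, which may be in part technical.

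Natriuretic peptides are hormones made by heart muscle and released when its walls are stretched. Nppa encodes the precursor of atrial natriuretic peptide and Nppb that of the B-type peptide; the ventricle makes little of the atrial peptide after birth, and its return there is a classic sign of overload. Corin, a membrane serine protease of cardiomyocytes, cuts the Nppa precursor, and Furin, a proprotein convertase, cuts the Nppb precursor and many other proteins. Both peptides bind Npr1, a guanylyl cyclase that makes cGMP in target cells. Npr2 is the related cyclase that prefers C-type natriuretic peptide, and Npr3, which has no cyclase domain, removes all 3 peptides from the extracellular space.

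Nppb and Nppa are neighbours, read in the same direction on chromosome 4, and the sequences before their start sites are shown because these 2 genes carried every call among the 7. In GRCm38 (GENCODE), Nppb spans 147985788 to 147987205 and Nppa 148000722 to 148002079 on the plus strand, with 13516 bases between them. The 250 bases before each start, from RefSeq (GRCm38.p6, plus strand, 5′ to 3′), are chr4:148000472-148000721 for Nppa and chr4:147985650-147985899 for Nppb. Capitals mark letters that match motifs of factors known to act on cardiac promoters.
Nppa: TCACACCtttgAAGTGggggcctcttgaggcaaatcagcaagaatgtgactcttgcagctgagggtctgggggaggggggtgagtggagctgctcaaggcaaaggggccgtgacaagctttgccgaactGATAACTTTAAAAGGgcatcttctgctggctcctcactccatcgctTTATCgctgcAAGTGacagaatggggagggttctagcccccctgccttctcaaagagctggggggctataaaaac
Nppb: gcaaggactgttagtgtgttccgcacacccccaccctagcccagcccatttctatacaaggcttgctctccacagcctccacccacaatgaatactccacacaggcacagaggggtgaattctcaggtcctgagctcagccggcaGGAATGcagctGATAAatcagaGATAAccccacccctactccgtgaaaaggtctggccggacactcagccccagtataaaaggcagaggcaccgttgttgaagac
Both sequences held the GATA letters GATAA, at -121 and, on the minus strand, at -75 in Nppa and at -94 and -83 in Nppb, counted to the first base from the start site. Nppa also held the T-box letters TCACACC at -250, the NKX2-5 letters AAGTG at -239 and -65, and, directly after the first GATAA, the 10 letters CTTTAAAAGG, which differ at 1 position from the CArG box that serum response factor (SRF), the DNA-binding partner of the MRTFs, recognises. Nppb held the M-CAT letters GGAATG, which TEAD factors recognise, at -105. These motifs are common: on either strand, of 32851 RefSeq promoters of 300 bases (250 before the start and 50 from it), 25.4% held GATAA, 46.4% AAGTG, 14.7% GGAATG, 3.98% TCACACC and 21.1% a CArG box with up to 1 mismatch. An exact CArG box (1.63% of promoters) and the AP-1 letters TGANTCA (7.81%) were in neither window, which says nothing of these factors elsewhere. For Nppb the RefSeq start lies 112 bases downstream of the GENCODE start, so the position of its promoter differs between the annotations. All letters marked for Nppb, from -105 to -79, lie within those 112 bases, and so inside the gene span that GENCODE gives.

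Libraries held 20082000 to 29675212 counts, and levels are given as CPM, counts scaled to library size with edgeR's TMM factors; 3 counts were worth 0.0935 to 0.184 CPM. The targeted genes had lower levels in the dKO libraries. Mkl1, which encodes MRTF-A, was at 7.59 to 16.0 CPM in the control libraries and at 2.15 to 3.20 CPM in the dKO libraries. Mkl2, for MRTF-B, was at 30.1 to 44.1 and 15.2 to 28.1 CPM. Between genotypes after sham and TAC Mkl1 passed (edgeR, adjusted p = 0.0409 and 0.00182), where 0.068% and 0.428% of all genes did. Mkl2 did not (edgeR, adjusted p = 0.507 and 0.518). Its lowest levels, 15.2 and 18.1 CPM, were in dKO sham replicate 1 and dKO TAC replicate 2. In dKO sham replicate 1 and dKO TAC replicate 2, counts of short transcripts were high relative to the other replicates: the deviation from them fell with exon length (Spearman rho across 9741 genes -0.62 and -0.60). It rose with length in the other 4 dKO libraries (0.46 to 0.65), each of which has 1 of those 2 among the replicates it is set against, and rho was -0.10 to 0.11 in the control libraries. The median deviation of the 150 genes of up to 1000 nt was 1.40 and 0.59 on the log2 scale in those libraries. Nppa (865 nt of exon) and Nppb (781 nt) are among the shortest transcripts, so their values are also given with this trend removed. Cardiomyocyte markers were high throughout: the summed level of 8 genes was 53199 to 69755 CPM after sham and 45277 to 73616 CPM after TAC for control libraries. For dKO libraries it was 51072 to 114240 CPM after sham and 40090 to 47436 CPM after TAC. The 114240 CPM was that of dKO sham replicate 1, against 56047 and 51072 CPM in replicates 2 and 3. In dKO the TAC libraries were thus all below the sham libraries, beside the rise of the ligands. Single genes did not overlap between these groups in 30.7% of cases. Of the 8 markers 0 passed with TAC in dKO (7.39% of all genes did), and 3 had estimates above 0. The part of this difference in the results was not tested.

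Nppa rose most among the 7. After sham surgery the control libraries held 112, 96.6 and 60.8 CPM, and after TAC 810.4, 1599 and 1764 CPM. In dKO the sham libraries held 112, 165 and 257 CPM and the TAC libraries 1838, 1163 and 1992 CPM. Every TAC library was above every sham library of either genotype; TAC and sham did not overlap for 21.8% of all tested genes in control and 30.7% in dKO. The log2 change with TAC was 3.95 ± 0.42 (SE) in control, or 15.5-fold with a 95% interval of 8.20 to 29.3 (edgeR's quasi-likelihood test with p adjusted by Benjamini-Hochberg, adjusted p = 0.00452), and 3.22 ± 0.41 in dKO, 9.35-fold with an interval of 5.05 to 17.3 (edgeR, adjusted p = 0.00217). Read per kb of exon, the median rank of Nppa among 13306 nuclear protein-coding genes moved from 235 to 8 in control and from 144 to 5 in dKO.

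Nppb also rose with TAC in both genotypes. Control sham libraries held 272, 264 and 313 CPM and control TAC libraries 597, 880.4 and 588 CPM. In dKO the sham libraries held 100.5, 99.5 and 127 CPM and the TAC libraries 621, 754 and 566 CPM. The dKO sham libraries were the lowest of all 12 (no overlap with control sham, as for 18.7% of all genes), while the TAC libraries of the genotypes overlapped. With TAC, Nppb rose 2.43-fold in control (log2 1.28 ± 0.21 SE; edgeR, adjusted p = 0.0157) and 5.94-fold in dKO (log2 2.57 ± 0.22; edgeR, adjusted p = 0.000342). The call in control did not hold when replicate 1 or 3 of its sham group or replicate 2 of its TAC group was left out (edgeR, adjusted p = 0.108, 0.0989 and 0.0655). The median rank of Nppb per kb moved from 74 to 29 in control and from 233 to 29 in dKO.

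Both peptide genes passed the test with TAC, 2 of the 7 in each genotype, where 2.25% of 14712 tested genes did so in control and 7.39% in dKO. With the genotypes averaged the same 2 were called (16.6% of all genes). Their log2 changes were then 3.59 ± 0.29 (SE) for Nppa and 1.93 ± 0.15 for Nppb (edgeR, adjusted p = 7.71e-05 and 7.48e-05).

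**Figure D1:**
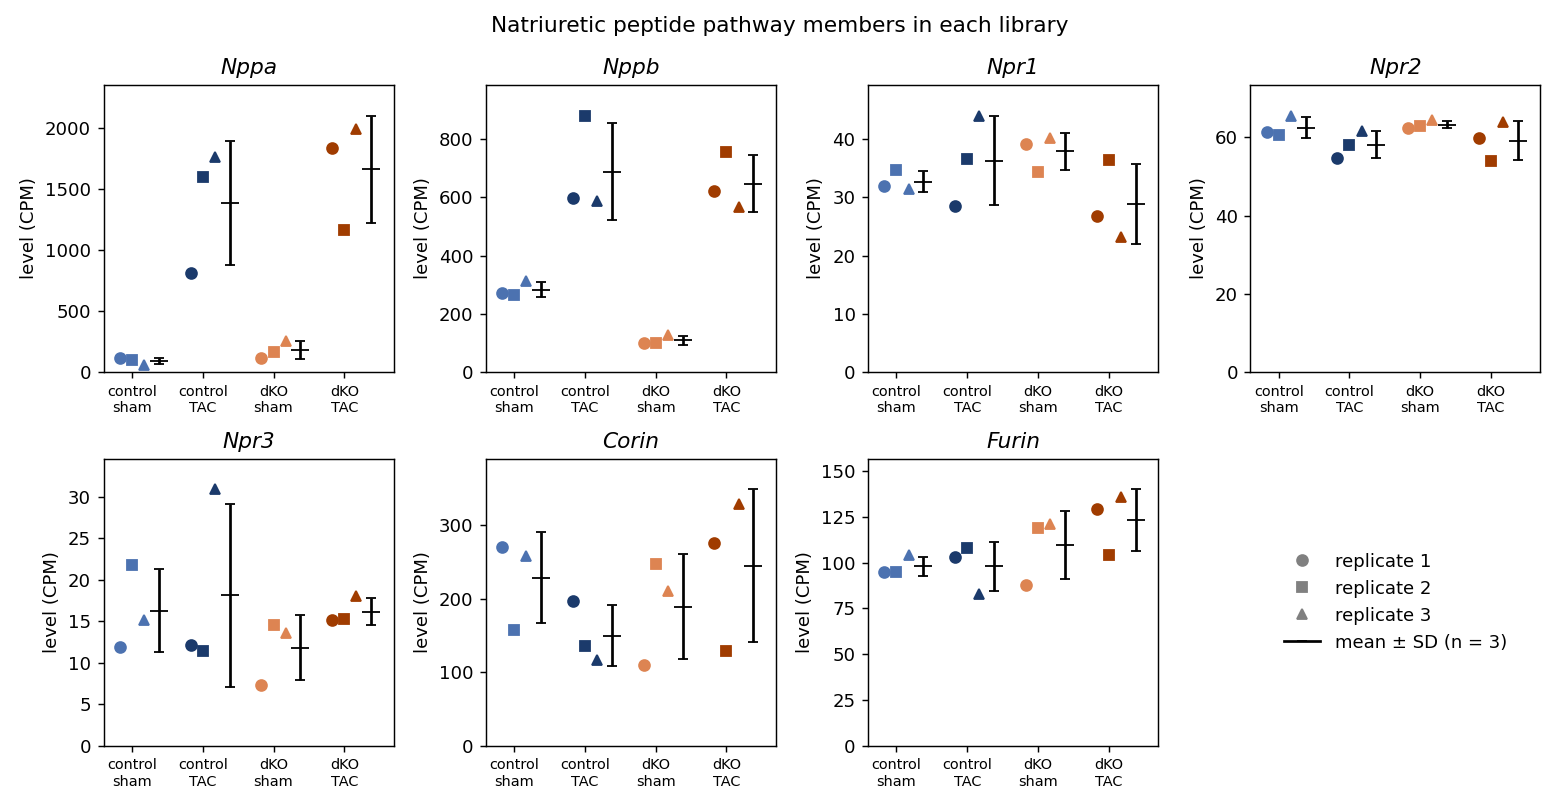
Level of each of the 7 genes in CPM (linear axes from 0) in the 4 groups. Circles, squares and triangles are replicates 1, 2 and 3, and bars are mean ± SD (n = 3). Nppa and Nppb are higher in every TAC library than in the sham libraries of the same genotype, Nppb is lowest in the 3 dKO sham libraries, and the receptor and protease genes overlap between most groups.

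In sham-operated hearts Nppb was lower in dKO than in control, with group means of 109 ± 15.3 CPM against 283 ± 26.4 CPM in control (SD, n = 3), a 2.60-fold difference (log2 -1.38 ± 0.22 SE; edgeR, adjusted p = 0.0458). It was the only 1 of the 7 to pass the test in this comparison, where 10 genes, 0.068% of those tested, did. Nppa was at 178 ± 73.7 CPM in dKO against 89.8 ± 26.3 CPM in control, and its log2 difference of 0.99 ± 0.38 had a 95% interval of 0.16 to 1.81 but did not pass (edgeR, unadjusted p = 0.0226, adjusted p = 0.507). The ranges of Nppa overlapped: dKO sham replicate 1 and control sham replicate 1 both held 112 CPM.

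The dKO sham call of Nppb lay close to the threshold. It was lost on leaving out any 1 library except control TAC replicate 2 (edgeR, adjusted p = 0.0508 to 0.257), although the log2 difference stayed between -1.48 and -1.30. It was also lost without both dKO libraries that stood apart (adjusted p = 0.0786) and with the transcript-length trend removed (log2 -1.71 ± 0.34, edgeR adjusted p = 0.121). DESeq2 kept it (adjusted p = 4.78e-08).

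After TAC neither peptide gene passed between genotypes, nor did any other of the 7 (0.428% of all genes did). The log2 difference of dKO minus control was 0.26 for Nppa, with a 95% interval of -0.56 to 1.07, and -0.09 for Nppb, with an interval of -0.55 to 0.37 (edgeR, adjusted p = 0.911 and 0.956). The intervals leave room for differences of either sign. Each group enters 2 of these 4 comparisons, so the change of Nppb with TAC in dKO and its lower level in sham dKO hearts rest on the same 3 dKO sham libraries.

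Whether the change with TAC differed by genotype was tested directly. For Nppb the change was larger in dKO by 1.29 ± 0.30 (SE) on the log2 scale, with a 95% interval of 0.64 to 1.94 and an unadjusted p of 0.0010, but the adjusted p was 0.841 (edgeR). For Nppa the difference was -0.73, with an interval of -1.88 to 0.42 (edgeR, adjusted p = 0.841). None of the 7 and 0 of 14712 genes, 0%, passed in edgeR, while 697 had an unadjusted p under 0.05. DESeq2 called 11 genes, with Nppb among them (adjusted p = 0.0415). Averaged over the surgeries, the log2 difference of Nppb between dKO and control was -0.73 ± 0.15 (edgeR, adjusted p = 0.0546), and none of the 7 passed where 0.585% of all genes did. Nppb did pass there with no count filter, without both dKO libraries that stood apart, and in DESeq2 (adjusted p = 0.0417, 0.0388 and 9.09e-05).

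**Figure D2:**
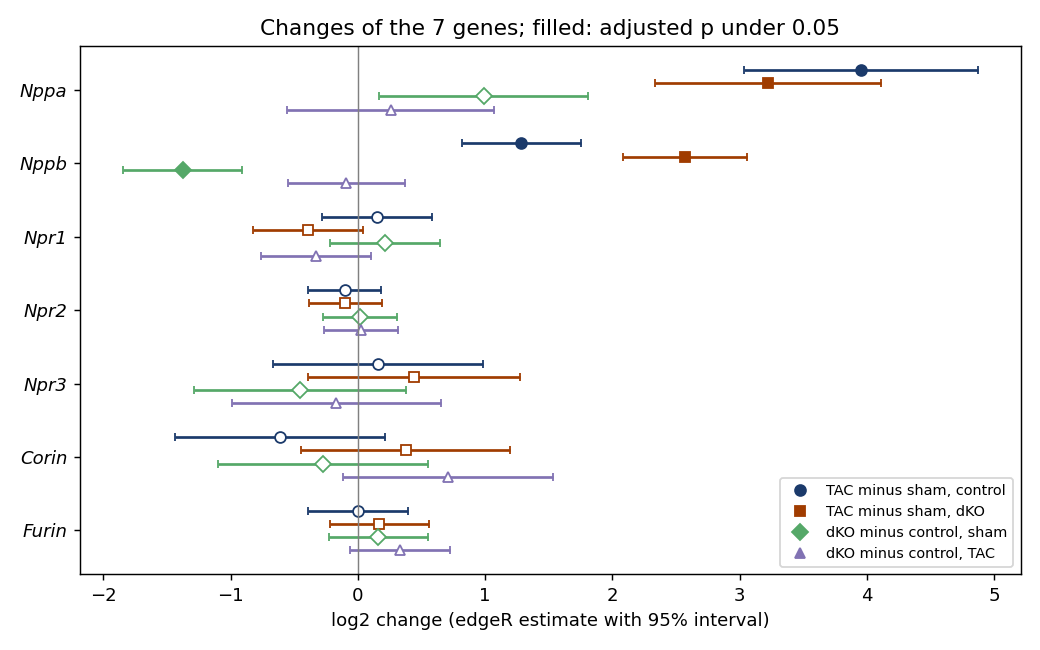
Log2 change of each of the 7 genes in 4 comparisons, as the edgeR estimate with its 95% interval; filled symbols have an adjusted p under 0.05. Nppa and Nppb are filled for TAC in both genotypes, Nppb alone is filled for dKO after sham at -1.38, and the intervals of the 5 receptor and protease genes all include 0.

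Removing the transcript-length trend moved the ligand levels most in dKO sham replicate 1. It took Nppa in that library from 112 to 47.7 CPM and Nppb from 100.5 to 41.2 CPM, while the other dKO sham libraries changed little (Nppa 167 and 268 CPM, Nppb 101.1 and 132 CPM). The corrected Nppa levels of dKO sham (47.7 to 268 CPM) then lay on both sides of those of control sham (60.9 to 118 CPM). The corrected Nppb levels of dKO sham (41.2 to 132 CPM) were still all below those of control sham (287 to 312 CPM).

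**Figure D3:**
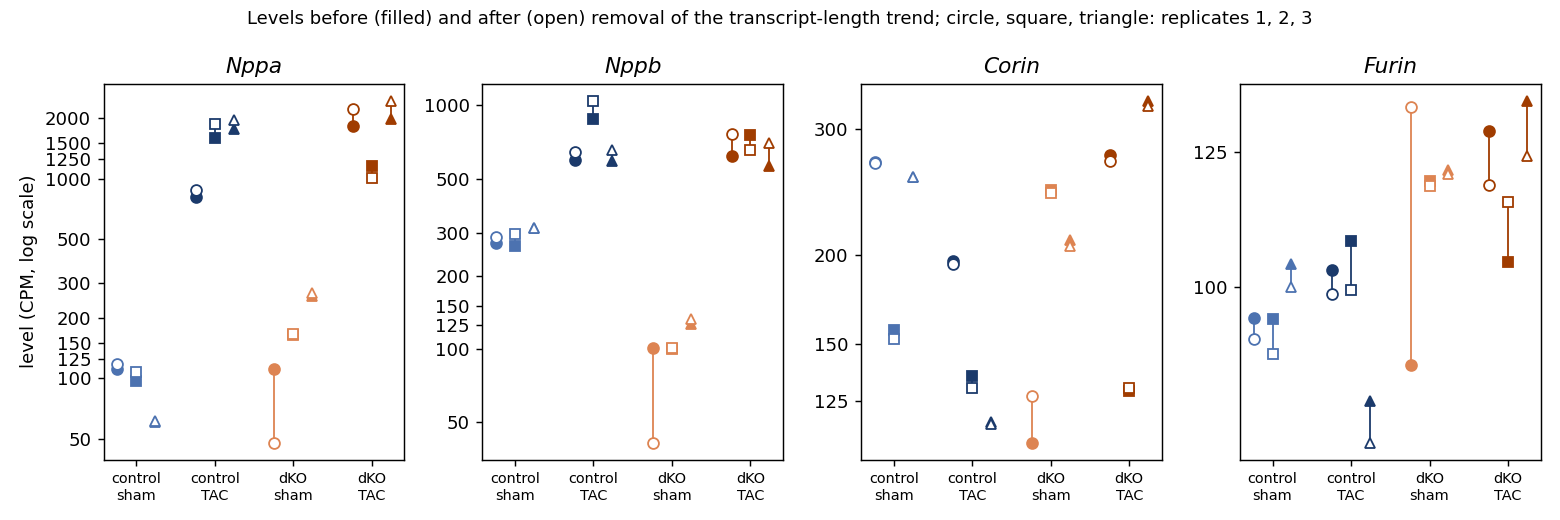
Levels in CPM (log axes) of Nppa, Nppb, Corin and Furin in each library before (filled) and after (open) removal of the transcript-length trend; circles, squares and triangles are replicates 1, 2 and 3. The longest shifts are in dKO sham replicate 1, downward for Nppa (112 to 47.7) and Nppb (100.5 to 41.2) and upward for Furin (88.0 to 135).

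The balance of the peptide transcripts was read within each library as the Nppa count divided by the Nppb count, which does not depend on library scaling. Sham controls had ratios of 0.412, 0.366 and 0.194, and controls after TAC 1.36, 1.82 and 3.00. Sham dKO libraries had 1.11, 1.65 and 2.03, and dKO libraries after TAC 2.96, 1.54 and 3.52. Nppb thus had more counts than Nppa in the 3 control sham libraries, and Nppa had more in the other 9. Over both genotypes the ratio was 3.20-fold higher with TAC (exact permutation test within genotypes, two-sided, p = 0.015; 0.06 after Benjamini-Hochberg adjustment over 4 ratio tests), and over both surgeries it was 2.55-fold higher in dKO (exact permutation test within surgeries, p = 0.03; adjusted 0.06). Within sham the dKO ratio was 5.04-fold that of control and the ranges did not overlap, which gives p = 0.1, the smallest an exact test of 3 against 3 libraries allows. Within TAC it was 1.29-fold (exact permutation p = 0.6). The effect of TAC was also unlike between genotypes. It was 6.32-fold in control, without overlap (exact permutation p = 0.1), and 1.62-fold in dKO, where sham and TAC ranges overlapped (exact permutation p = 0.3).

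**Figure D4:**
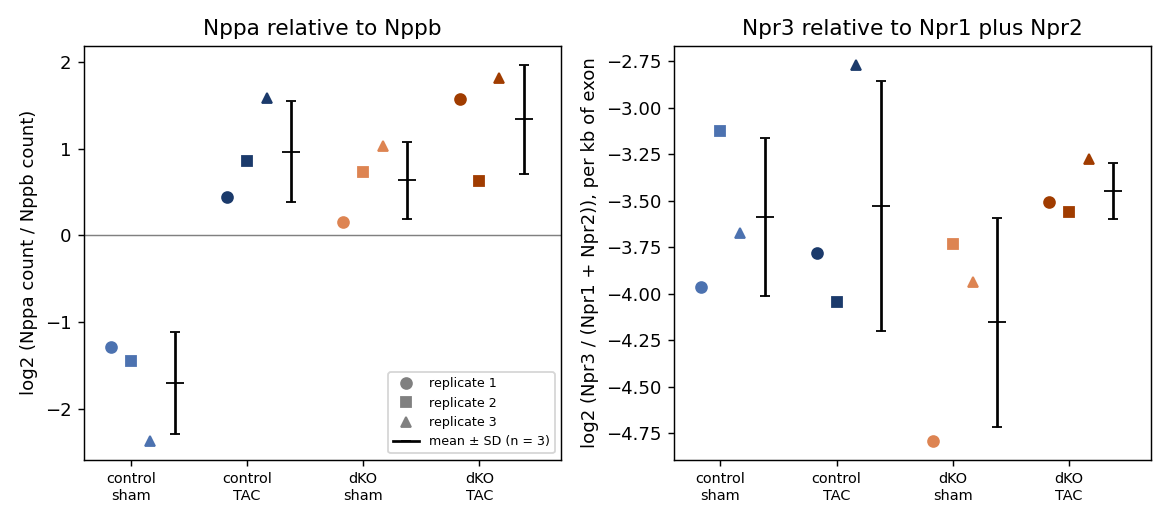
Left, log2 of the Nppa count over the Nppb count; right, log2 of Npr3 over the sum of Npr1 and Npr2, each per kb of exon. Symbols are replicates and bars are mean ± SD (n = 3). The 3 control sham libraries lie below 0 on the left panel and the other 9 above it. On the right the dKO TAC libraries lie above the dKO sham libraries, and both overlap the control groups.

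Markers of other cells moved with surgery beside the ligands. The 5 atrial markers other than Nppa (Myl4, Myl7, Sln, Bmp10 and Dkk3) summed to 7.07 to 48.0 CPM in the sham controls and, where Nppa also rose, to 78.6 to 223 CPM in the controls after TAC; Bmp10 was at 0 in 7 of 12 libraries and never above 0.249 CPM. In dKO sham the sum was 7.07, 89.8 and 158 CPM in replicates 1, 2 and 3, the order of Nppa in those libraries, and in control TAC it was 223, 122 and 78.6 CPM, the reverse of the order of Nppa there. In dKO TAC the sum was only 16.4 to 20.2 CPM, within the control sham range, while Nppa was at 1163 to 1992 CPM. The summed level of 8 fibroblast markers was 401 to 840 CPM in control libraries after sham and 1034 to 7728 CPM after TAC. In dKO it was 300.2 to 678 CPM after sham and 2217 to 2706 CPM after TAC. In each genotype 3 of the 8 rose with TAC, Col1a1, Col1a2 and Col3a1, where 2.25% of all genes were called in control and 7.39% in dKO. Dcn, Lum, Dpt, Pdgfra and Tcf21 did not pass, with log2 changes of 0.36 to 1.72 in control and -0.18 to 1.51 in dKO. The part of these cells in the ligand changes was not tested, and in bulk RNA a change in the number of cells of a type and a change in RNA per cell cannot be told apart.

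Npr1, the cyclase receptor for both cardiac peptides (chromosome 3, 90450591 to 90465866, minus strand), stayed between 23.2 and 43.9 CPM in the 12 libraries. Control libraries held 31.9, 34.7 and 31.4 CPM after sham and 28.5, 36.5 and 43.9 CPM after TAC. In dKO they were 39.2, 34.3 and 40.2 CPM after sham and 26.9, 36.4 and 23.2 CPM after TAC. Control and dKO estimates differed in sign with TAC, with log2 changes of 0.15 (95% interval -0.28 to 0.58) and -0.39 (-0.83 to 0.04). Neither passed (edgeR, adjusted p = 0.793 and 0.223), and the test of their difference gave -0.54 with an interval of -1.16 to 0.07 (edgeR, adjusted p = 0.841).

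Npr2 (chromosome 4, 43631935 to 43651244, plus strand) was the steadiest of the 7, with coefficients of variation of 1.52% to 8.48% within groups. Sham controls were at 61.4, 60.5 and 65.5 CPM, and TAC controls at 54.7, 57.9 and 61.7 CPM. In dKO it was at 62.5, 63.0 and 64.3 CPM after sham and 59.7, 53.8 and 63.8 CPM after TAC. Its log2 change with TAC was -0.10 in both genotypes, with 95% intervals of -0.39 to 0.18 in control and -0.39 to 0.19 in dKO, and it did not pass in either (edgeR, adjusted p = 0.785 and 0.658).

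Npr3, the clearance receptor (chromosome 15, 11839896 to 11907287, minus strand), was the lowest of the 7. Control sham libraries held 11.9, 21.7 and 15.1 CPM and control TAC libraries 12.1, 11.4 and 30.9 CPM. In dKO they held 7.31, 14.6 and 13.6 CPM after sham and 15.2, 15.2 and 17.99 CPM after TAC. The high value of control TAC replicate 3 came from the library with the most fibroblast marker RNA (7728 CPM). It also had the most endocardial marker RNA (178 CPM over Nfatc1, Plvap, Vwf and Hapln1, against 52.6 to 94.3 CPM in the other libraries). Among these genes Vwf reached 121 CPM, while Hapln1 was at 0 in 5 libraries and never above 0.246 CPM. The sum of 7 endothelial markers was not highest there. It was 1212 CPM, against 1366 CPM in control TAC replicate 2 and 1427 CPM in dKO sham replicate 3. Endocardial cells are known to express Npr3, and their part was not tested. Without control TAC replicate 3 the estimate of TAC in control changed sign, from 0.16 to -0.47. In dKO the TAC and sham libraries did not overlap, as was so for 30.7% of all genes, and the log2 change was 0.44 with an interval of -0.39 to 1.27 (edgeR, adjusted p = 0.469).

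The clearance receptor was also read against the cyclase receptors in each library, as Npr3 over the sum of Npr1 and Npr2, each per kb of exon. The ratio lay between 0.0361 and 0.147 in the 12 libraries, so cyclase transcripts outnumbered those of Npr3 in all of them. Group means went from 0.0856 after sham to 0.0934 after TAC in control and from 0.0588 to 0.0920 in dKO. Neither TAC (1.30-fold; exact permutation test within genotypes, p = 0.22, adjusted 0.293) nor the dKO (0.846-fold; p = 0.41 by the same exact test within surgeries, adjusted 0.41) passed. With TAC the ratio was 1.04-fold in control and 1.63-fold in dKO. The dKO ranges did not overlap, which gives an exact permutation p of 0.1, the smallest that 3 against 3 libraries allow.

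Corin (chromosome 5, 72300025 to 72504473, minus strand), the protease of the Nppa precursor, varied widely between replicates, with coefficients of variation of 27.1% to 42.3% within groups. Control sham libraries held 270.2, 157 and 257 CPM and control TAC libraries 196, 135 and 117 CPM. In dKO they held 109, 247 and 210 CPM after sham and 276, 129 and 329 CPM after TAC, the low values being those of the libraries that stood apart. Its log2 change with TAC was -0.61 in control (95% interval -1.44 to 0.21) and 0.37 in dKO (-0.45 to 1.20), and the test of that difference gave 0.99 with an unadjusted p of 0.090 (edgeR, adjusted p = 0.841). Length correction left those 2 libraries low, at 127 and 130 CPM. With both left out the dKO minus control difference after sham went from -0.27 to 0.0011. So Nppa rose in both genotypes while no change of its protease passed in either.

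Furin (chromosome 7, 80388585 to 80405436, minus strand), the convertase of the Nppb precursor, was even across the controls. Sham controls were at 95.005, 94.9 and 104 CPM and TAC controls at 103, 108 and 82.9 CPM. In dKO it was at 88.0, 119 and 121 CPM after sham and 129, 104 and 136 CPM after TAC, again lowest in the libraries that stood apart. The log2 change with TAC was close to 0 in control, with an interval of -0.39 to 0.39, and 0.17 in dKO (-0.22 to 0.56). Furin has 9178 nt of exon when its 8 transcripts are merged, the length that the correction used, and its longest transcript has 5736 nt. With the length trend removed all 6 dKO libraries (115 to 135 CPM) were above all 6 control libraries (77.4 to 100 CPM), a separation found in either direction in 1.3% of all genes with a length. Averaged over surgeries that difference was 0.39 ± 0.10 (SE) in log2 and did not pass (edgeR, adjusted p = 0.0908); without the correction it was 0.25 (adjusted p = 0.424). Furin has near-identical stretches in 2 other annotated genes (at least 95% identity over 200 nt). The sources used here do not say how reads shared with them were counted. The other members had none outside overlapping genes.

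Per kb of exon, with all exons of a gene merged, the order of the 7 changed between groups in 2 places, Nppa with Nppb and Furin with Npr2. Furin has 9178 nt merged but 5736 nt in its longest transcript, and Npr2 4667 and 3660 nt. The order of Furin and Npr2, and whether they overlap, thus depends on the length chosen. Control sham ran Nppb (362 CPM per kb), Nppa (104), Corin (42.3), Npr2 (13.4), Furin (10.7), Npr1 (6.83) and Npr3 (1.73), with no neighbours overlapping over their 3 libraries. In control TAC Nppa (1608 CPM per kb) stood before Nppb (881), although their ranges overlapped, and Furin (10.7) overlapped both Npr2 (12.5) and Npr1 (7.59). In dKO sham Nppa (206 CPM per kb) and Nppb (139) overlapped. In dKO TAC Nppa (1924 CPM per kb) was above Nppb (828) without overlap, and Furin (13.4) and Npr2 (12.7) could not be ordered. The lowest ligand mean, Nppa in control sham at 104 CPM per kb, was above the highest mean of a receptor, Npr2 in dKO sham at 13.6 CPM per kb.

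Of the 7 genes, 6 share exon sequence with a transcript annotated on the other strand. For Nppa it is Gm13054, with 532 nt shared, and Gm13054 itself had 8 to 230 counts per library, against 1634 to 54335 for Nppa. The library kit marks strand, but the strand setting of the counting is not stated in the sources used, so reads of Nppa and Gm13054 may be mixed.

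The other ligands of the system had few reads. Nppc, which encodes the C-type peptide that Npr2 prefers, averaged 0.0125 to 0.148 CPM in the groups, and Ostn, whose product binds Npr3, 0 to 0.0325 CPM. Both were too low to test.

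Among 16 other enzymes that mature or break down peptides, 11 were tested. None passed with TAC in control, where 2.25% of all genes did (median log2 change 0.0010, against 0.00065 over all genes). In dKO 1 rose and 1 fell, where 7.39% of all genes were called. Pam, the monooxygenase that amidates secreted peptides and is abundant in atrial granules, went from 701 ± 153 to 1495 ± 482 CPM (SD, n = 3; log2 1.09 ± 0.26 SE; edgeR, adjusted p = 0.0275). Mme, which encodes neprilysin, the protease that degrades natriuretic peptides, went from 6.73 ± 0.94 to 2.99 ± 0.11 CPM (log2 -1.17 ± 0.24 SE; edgeR, adjusted p = 0.0143). With the genotypes averaged, where 16.6% of all genes were called, Pam rose (log2 0.76), Mme fell (-0.95) and Pcsk4, a convertase known mainly from germ cells, fell (-1.19). Furin's relatives Pcsk6 and Pcsk7 did not pass, at group means of 28.3 to 45.8 and 21.3 to 23.6 CPM, nor did the insulin-degrading enzyme Ide (82.4 to 149.8 CPM). None of the 11 passed between genotypes, where 0.068% of all genes did after sham and 0.428% after TAC.

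Of the genes that make, sense or destroy cGMP, the second messenger of Npr1 and Npr2, 21 of 26 names could be tested and none passed with TAC in either genotype or between genotypes after either surgery. Over all genes 2.25% were called with TAC in control and 7.39% in dKO. Between genotypes 0.068% were called after sham and 0.428% after TAC, so few calls were to be had in a list of this size. The median log2 change with TAC was 0.09 in control and -0.05 in dKO. With the genotypes averaged 1 rose and 3 fell, 4 of 21 and so a share near the 16.6% of all genes. The phosphodiesterase Pde1a rose (log2 1.05 ± 0.32 SE; edgeR, adjusted p = 0.0458). The 3 that fell were Rgs2 (log2 -0.71), a target of cGMP-dependent kinase, Pln (-0.70), the phospholamban substrate of that kinase and of protein kinase A, and Mrvi1 (-0.55), which encodes a kinase-associated protein of the sarcoplasmic reticulum. Prkg1, the kinase itself, went from 10.2 to 14.3 CPM in control and from 9.50 to 28.3 CPM in dKO and did not pass. The cGMP phosphodiesterases Pde5a and Pde9a, both drug targets, were low, at group means of 3.47 to 5.93 and 2.21 to 3.17 CPM. Medians of this list between genotypes were -0.18 after sham and -0.36 after TAC, against 0.02 and -0.03 over all genes. Medians of vascular cell markers were low after TAC as well. They were 0.08 after sham and -0.40 after TAC for 7 endothelial markers, and -0.12 and -0.28 for 6 smooth muscle and pericyte markers. The part of these cells in the list was not tested.

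Factors known to act on the Nppa and Nppb promoters did not pass with TAC in control, where 2.25% of all genes did. Of these factors 0 of 30 were called, with 25 estimates below 0 and a median log2 change of -0.20. Gata4, which binds GATA motifs, was at 99.8 to 112 CPM in every group. Tead1, which binds M-CAT motifs, went from 153 to 167 CPM with TAC in control and from 104 to 169 CPM in dKO, without passing. Srf was at 96.9 and 94.7 CPM in control and 71.1 and 55.4 CPM in dKO after sham and TAC. In dKO with TAC, where 7.39% of all genes were called, only Hdac4, a repressor of MEF2-driven genes, fell (log2 -0.67 ± 0.19 SE; edgeR, adjusted p = 0.0493). With the genotypes averaged 6 of 30 were called, a share near the 16.6% of all genes: Tbx20 rose (log2 0.88), and Klf15 (-1.12), Egr1 (-0.94), Tbx5 (-0.80), Hdac4 (-0.62) and Hdac5 (-0.55) fell. Klf15 is known as a repressor of hypertrophic genes. The log2 difference of Srf between dKO and control after TAC was -0.77 and did not pass (edgeR, adjusted p = 0.101).

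Of 13 named neighbours of Nppb and Nppa on chromosome 4, 10 were tested. None passed in any single comparison of 2 groups, where 0.068% to 7.39% of all genes did. Clcn6, a chloride transporter gene that lies on the 3′ side of Nppa, was at 11.4 to 14.4 CPM in the 4 groups, and 2510039O18Rik, on the other side of Nppb, at 35.4 to 41.6 CPM. Mfn2, for a mitochondrial fusion protein, was at 911 and 711 CPM in control and 724 and 594 CPM in dKO after sham and TAC. With the genotypes averaged 1 of the 10 was called, beside 16.6% of all genes: Tnfrsf1b, a tumour necrosis factor receptor, rose (log2 0.93 ± 0.28 SE; edgeR, adjusted p = 0.0392).

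The genes most like each member were ranked by Pearson correlation of log2 CPM over the 12 libraries among 9679 genes of at least 5 CPM; libraries share depth, group and the length trend, so these are descriptions. For Nppa they were Itga5 (r = 0.964), Ptk2b (0.961), Mki67 (0.961), C1qtnf6 (0.957) and Cilp (0.956). Cilp, a matrix protein gene, had means of 5.21 and 225 CPM in control and 7.08 and 195 CPM in dKO after sham and TAC, and the proliferation marker Mki67 5.05 and 59.8, and 6.37 and 46.4 CPM. For Nppb they were Bace1 (0.929), Flnc (0.917), Ankrd23 (0.917), Wdr1 (0.911) and Nuak1 (0.903). Flnc, a Z-disc filamin, was at 352 and 723 CPM in control and 298 and 734 CPM in dKO, and the muscle ankyrin repeat gene Ankrd23 at 22.3 and 50.6, and 16.3 and 45.7 CPM. Both shared with Nppb the lowest group mean in dKO sham.

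For the receptors and proteases the most alike genes were other ones. Npr1 was closest to Xylt2 (0.960), Nxn (0.940) and Pltp (0.939), each of which, like Npr1, had its lowest group mean in dKO TAC. Npr2 was closest to Ccbe1 (0.880), Fmo2 (0.851) and Tob2 (0.841). Genes close to Npr3 included Abca8a (0.903) and Crispld2 (0.901), with the lowest mean of each in dKO sham. Corin was closest to Arhgap26 (0.976), Nek9 (0.958) and Zfp106 (0.956), and Furin to AW011738 (0.935), Irs1 (0.909) and Limch1 (0.874).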

How the data were processed

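The authors deposited whole-number read counts per gene for 12 libraries (unit: raw counts, not normalised). Per the labels' protocols, hearts were digested by Langendorff perfusion, cardiomyocytes settled by gravity for 10 min, and 200 ng of RNA made stranded poly(A) libraries for 100 nt single-end sequencing. Per the submitters' processing notes, Trimmomatic 0.36, STAR 2.5.2b, Subread 1.5.0p3 with featureCounts and GRCm38.p5 were used; the sources used here do not give roles, annotation or the handling of shared reads.

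From these counts edgeR 4.0.16 (R 4.3.3) was run on all 12 libraries: TMM scaling, filterByExpr by group (14712 genes kept), 1 mean per group, quasi-likelihood F tests with 8 residual degrees of freedom before moderation and Benjamini-Hochberg adjustment over all tested genes, called under 0.05. Groups came from the labels. Ratios used 0.5 added to each count and exact permutation over libraries. The length trend was a lowess (span 0.3) of each library's log2 CPM deviation on log2 exon length (all exons of a gene merged, GENCODE M21), entered as an offset. Scripts were tested on simulated data. Other settings tried were DESeq2 1.42.0, its size factors, no count filter, only the 2 groups compared, a replicate block, the length trend, other pseudocounts, and leaving out libraries. The text names the 7 genes, the targeted genes, called members of the pathway lists and the 5 (Nppa, Nppb) or 3 most correlated genes; 1 of these is not reported here. Members and lists were chosen with earlier results of these data known. Sequences were matched by symbol, and 7 of 7 genes had a RefSeq promoter. At this depth 3 counts were worth 0.0935 to 0.184 CPM, and genes near that level, such as Nppc and Ostn, were not tested.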

Additional observations from a re-analysis of the deposited data

How the results depend on the processing

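The TAC calls of Nppa in both genotypes and of Nppb in dKO held under every alternative run except 1: tested on the 2 control groups alone, 0 of the 7 genes passed (edgeR, adjusted p = 0.0513 for Nppa and 0.0828 for Nppb), and only 2 genes did. Of 910 values of the 7 genes under the alternatives, 848 kept direction and side of the threshold, 20 lost a call (19 of Nppb, 1 of Nppa), 4 gained one (all Nppb) and 38 changed sign; those 38 were uncalled values, at most 0.47 in size. The cause of these changes was not tested.

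Genes called with TAC in control numbered 936 with no count filter and 1005 in DESeq2, and with TAC in dKO 647 on the 2 groups alone and 2376 in DESeq2. For dKO after sham they were 53 with no filter, 16 with the length trend removed, 5 on the 2 groups alone and 62 in DESeq2; Nppb was not called (0 of the 7) with the replicate block, the length trend removed or the 2 groups alone. For dKO after TAC they were 129, 112 and 320 with no filter, the length trend removed and DESeq2. The interaction had 5 with no filter, 1 with the length trend removed and 11 in DESeq2, of which 1 was Nppb. For dKO averaged over surgeries 174 genes passed with no filter and 348 in DESeq2, Nppb (1 of the 7) in both.

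Leaving out 1 library, or both that stood apart, gave 2 to 1130 genes for TAC in control (1 or 2 of the 7), 210 to 1580 for TAC in dKO, 5 to 12 for dKO after sham (0 or 1 of the 7), 8 to 508 for dKO after TAC, 0 to 2 for the interaction, 1322 to 3272 for TAC averaged and 38 to 198 for dKO averaged (0 or 1 of the 7). Log2 values ranged as follows. For TAC in control, Npr1 ran from -0.0035 to 0.30, Npr3 from -0.47 (without control TAC replicate 3) to 0.42 and Furin from -0.070 to 0.11. For dKO after sham, Npr2 ran from -0.0060 to 0.053 and Corin from -0.52 to 0.0014. For dKO after TAC, Nppa ran from -0.013 to 0.48, Nppb from -0.21 to 0.14, Npr2 from -0.020 to 0.0996 and Npr3 from -0.41 to 0.47. The Npr2 interaction ran from -0.051 to 0.069. With TAC averaged, Npr3 ran from -0.0078 to 0.43 and Corin from -0.26 to 0.041; with dKO averaged, Npr1 ran from -0.17 to 0.033 and Npr3 from -0.43 to 0.012. The Nppa to Nppb ratio ran from 1.51 to 1.86 for TAC and from 1.19 to 1.65 for dKO, with both under an adjusted exact permutation p of 0.05 without control TAC replicate 3, without dKO TAC replicate 2, and without both libraries that stood apart.

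Other sign changes were small: Furin with TAC in control was 0.0014 with no filter, 0.0036 with the block and 0.0068 on the 2 groups alone. With the length trend removed Furin was -0.061 with TAC in dKO, -0.031 for the interaction and -0.046 with TAC averaged. The Npr2 interaction was -0.0071 with DESeq2 size factors, -0.013 with the length trend removed and -0.0078 in DESeq2.

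No steady pairing by replicate number was seen. Of 18 pairs with the same number in 2 groups, 9 had correlated deviations above 0.1 (range -0.47 to 0.35). A library correlated best with its own number in 14 of 36 cases. For numbers 1, 2 and 3, sham with TAC gave 0.35, 0.25 and -0.17 in control and -0.44, -0.47 and 0.05 in dKO. The dKO libraries that stood apart bear different numbers, so these values cannot decide whether a number marks a shared batch, and the labels do not say. The replicate block left 41 genes called for dKO after TAC and gave Nppb after sham an edgeR adjusted p of 0.0895. It put both ratio effects (1.68 and 1.35, same size as without it) at an adjusted permutation p of 0.04. For these the mean of each replicate number was removed and labels were permuted across numbers, so this p is approximate and not exact. A fit with length trend and block together was not run. By Spearman rank the 5 genes most like Nppa were other genes (0 shared), and 2 of 5 were shared for Nppb. With 3 libraries a group, exact tests within a group pair cannot go below 0.1.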
